A study of Saccharomyces cerevisiae with 6 samples.

Results

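The genes described are the budding yeast genes whose symbol begins with MRPL or MRPS, or is MRP followed by a number, which name proteins of the mitochondrial ribosome. The rule found 56 genes among 6477 in the RefSeq gene table of Saccharomyces cerevisiae. Of these, 55 have a probe set on the expression arrays and 33 have a deletion strain with a barcode feature on the integration arrays, and 32 have both. RefSeq gives a ribosomal protein family name to 55 of them, 38 of the large and 17 of the small subunit. The exception is MRP8 (YKL142W), a gene with an MRP symbol and no family name, whose product is not known as a ribosomal protein. It is kept as chosen by the rule, so counts over all measured members and over all member strains include it.

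The fun30 deletion group had 2 expression arrays and the wild-type group 2. The labels give strain BY4741, a haploid laboratory strain, for both, grown to log phase in 10 ml of synthetic complete medium, and call the mutant isogenic. FUN30 encodes an ATP-dependent nucleosome remodeller, and the study asks how it acts at DNA double-strand break ends. In the other experiment, a pooled library of homozygous diploid deletion mutants received an isu1Δ::URA3 cassette, a sod2Δ::URA3 cassette or, as the control, the circular plasmid pRS416. The transformed pools grew for 2 days at 30°C on medium lacking uracil. Barcodes amplified from their genomic DNA were compared on 1 two-colour array per cassette.

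The mitochondrial ribosome translates the few proteins encoded by mitochondrial DNA, nearly all of them subunits of the respiratory chain and ATP synthase. Its protein parts are, with the exception of Var1, encoded in the nucleus, made in the cytosol and imported. Many descend from bacterial ribosomal proteins and others have no bacterial counterpart, and 37 of the members belong to families shared with bacteria and 18 to families specific to mitochondria. Yeast lacking such a protein usually cannot respire and often loses mitochondrial DNA, yet grows on fermentable sugar. In yeast the mRNAs of many of these proteins are bound by Puf3, an RNA-binding protein that controls their decay and translation.

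The targeted gene was examined on every array before the members. FUN30 had log2 signals of 3.37 and 3.55 in the fun30 deletion, against 9.63 and 9.40 in the wild type. The deletion arrays lay below 5.24, the 95th percentile of probe sets whose names lie outside the RefSeq table, which served as the background level. MET17, which is deleted in BY4741, had log2 signals of 13.05 and 12.94 on the deletion arrays and 5.49 and 5.47 on the wild-type arrays, so the deletion arrays go against that marker of the labelled strain. Its part in the results below was not tested. LEU2 and URA3, also deleted in BY4741, lay below the background level on all 4 arrays. HIS3, the other strain marker of BY4741, had mean log2 signals of 12.73 on the deletion arrays, against 12.94 on those of the wild type. Its signal thus did not follow that of LEU2 and URA3 in either genotype. The labels do not say whether arrays of a genotype came from separate cultures, nor do they name a second isolate, so p-values measure the spread between these arrays, and the loss of FUN30 and any further difference between these strains cannot be told apart. The number of arrays limits the precision.

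In the fun30 deletion the mitochondrial ribosomal protein transcripts had signals close to those of the wild type, with 1 exception. Of the 55 measured members 1 rose and 0 fell (limma, adjusted p under 0.05 over all 5498 probe sets), beside 1.36% and 1.29% of all tested probe sets, or 2.66% in either direction. The median log2 difference, deletion minus wild type, was −0.002 over the members and −0.003 over all tested probe sets. The member that rose was MRPL7, and the other 54 lay between −0.15 and 0.20. Of the 55 members 1, MRPL7, had an unadjusted p under 0.05 (limma), beside 22.2% of all tested probe sets. All 55 lay above the background level on every array.

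MRPL7 (YDR237W) encodes uL5m, the counterpart of the bacterial protein that helps to form the central protuberance of the large subunit. It had log2 signals of 11.89 and 11.85 in the fun30 deletion, against 10.94 and 11.02 in the wild type. Both deletion arrays lay above both wild-type arrays, and the gap was many times the distance between arrays of a genotype. The difference was 0.89 ± 0.07 (SE, 1.86-fold, adjusted p = 0.00686, limma). It lay between 0.86 and 0.93 when each array was left out in turn.

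MRPL7 lies inside a run of genes on chromosome IV, from GCD6 to EXG2, that were higher in the deletion. The run holds 47 probe sets, of which 39 rose (limma), and its median log2 difference was 0.85. The run was chosen with earlier results of these data known, so this count and median describe it and test nothing. Outside it, 1.96% of tested probe sets passed in either direction, and 0 of the 54 members there. Within it MRPL7 ranked 17 from the top, and no other member lies there. The gene on one side of it, FMN1, which encodes riboflavin kinase, had a difference of 0.76 (adjusted p = 0.00768, limma). On the other side, SEC26, a subunit of the COPI vesicle coat, had 0.71 (adjusted p = 0.0110, limma). The rise of MRPL7 was thus close in size to that of its neighbours, and a change of MRPL7 as a ribosomal protein gene cannot be told apart from that of the run.

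Chromosome IV holds 9 measured members in all, and the other 8 did not pass. The nearest to the run on one side is MRPL1, with 84 measured genes from the run's edge and a difference of 0.10. The nearest on the other side is MRPL35, with 58 genes and a difference of 0.01. MRPS28 and MRP1, further along the same arm, had differences of −0.01 and −0.02. MRP20, MRPL28, MRPL11 and MRP10 had 0.01, 0.08, −0.09 and −0.05.

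**Figure D1:**
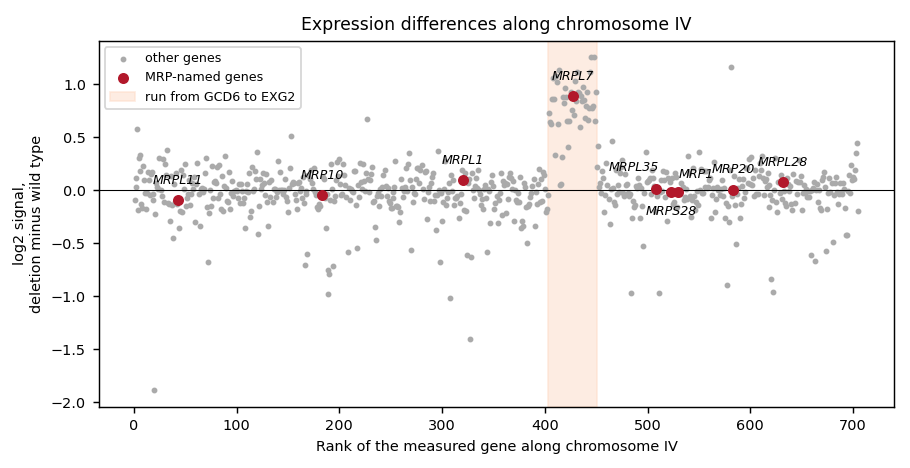
Log2 difference in signal, fun30 deletion minus wild type, for each measured gene of chromosome IV in RefSeq gene order. Red points are the 9 MRP-named genes, grey points the other genes, and the shaded band is the run from GCD6 to EXG2, whose median is 0.85. MRPL7 sits inside the band at 0.89 and the other 8 members sit near 0.

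Members of the large subunit with positive differences followed MRPL7 at a distance. MRPL24, which encodes bL28m, had log2 signals of 10.78 and 10.83 in the deletion, against 10.51 and 10.71 in the wild type. The deletion arrays lay above the wild-type arrays without overlap, but the difference of 0.20 ± 0.09 (SE) did not pass (adjusted p = 0.273, limma). MRPL38, which encodes uL14m, a protein of the interface between the subunits, had 12.05 and 12.02 in the deletion, against 11.79 and 11.97 in the wild type. Its difference of 0.15 ± 0.08 (SE) did not pass either (adjusted p = 0.341, limma), and wild-type array 1 lay well below the other 3.

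MRPL1, the uL1m gene, showed how much a single array could carry. It had 11.25 and 11.19 in the deletion, against 10.99 and 11.25 in the wild type, so the groups overlapped. MRPL3 encodes mL44, which has an RNase III fold, and had 11.03 and 11.01 in the deletion, against 10.98 and 10.88 in the wild type. In the small subunit the highest member was MRPS35 (mS45), with 10.92 and 10.78 in the deletion, against 10.67 and 10.82 in the wild type. The rest of the 10 highest were MRPL28, MRPL32, MRPS17 and MRPL15, with differences from 0.07 to 0.08.

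The lowest member was MRPS18, the uS11m gene of the small subunit, a protein of the platform where messenger RNA leaves. It had log2 signals of 11.07 and 10.93 in the fun30 deletion, against 11.10 and 11.19 in the wild type. Its deletion arrays lay below both wild-type arrays, by a margin smaller than the distance between the deletion arrays, and the difference of −0.15 ± 0.08 (SE) did not pass (adjusted p = 0.346, limma). MRPL16, which encodes uL16m near the tRNA binding sites of the large subunit, had 11.70 and 11.58 in the deletion, against 11.72 and 11.85 in the wild type. MRPL27 (mL41) had 11.19 and 11.22 in the deletion, against 11.30 and 11.35 in the wild type. MRPL51 (mL43) had 11.04 and 11.00 in the deletion, against 11.15 and 11.11 in the wild type. None of these differences, −0.14 for MRPL16, −0.12 for MRPL27 and −0.11 for MRPL51, passed the test. The rest of the 10 lowest were MRPL8, MRPL11, MRPL20, MRPL50, MRP13 and MRP4, from −0.10 to −0.07.

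The large and the small subunit gave similar values. The median difference was 0.005 over 37 large-subunit members and −0.010 over 17 small-subunit members, with 20 and 6 positive. Members of bacterial families had a median of −0.003 (36 genes) and members without a bacterial counterpart −0.005 (18 genes). MRP8, the member outside the ribosome, had 13.76 and 13.73 in the deletion, against 13.65 and 13.78 in the wild type. Its groups overlapped, and it did not pass (difference 0.03, adjusted p = 0.848, limma).

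The members were spread over a narrow range. Of the 55, 52 had a difference smaller than 0.15 in size (94.5%), beside 62.6% of all tested probe sets and 67.3% of those within the members' range of mean signal. The share was 83.3% for mitochondrial ribosomal proteins under other names, 94.4% for the respiratory chain and ATP synthase and 91.9% for cytosolic ribosomal proteins, so a narrow range was not particular to the members. The SD of the difference was 0.14 over members, and 0.07 without MRPL7. With no probe set left out, it was 0.28 over all tested probe sets and 0.21 over those within the members' range of mean signal. The deletion arrays lay above the wild-type arrays without overlap for 7 members and below for 9, of 55, beside 28.5% and 30.0% of all tested probe sets. The 95% intervals of single members other than MRPL7 (limma) reached from −0.35 at the lowest to 0.42 at the highest.

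**Figure D2:**
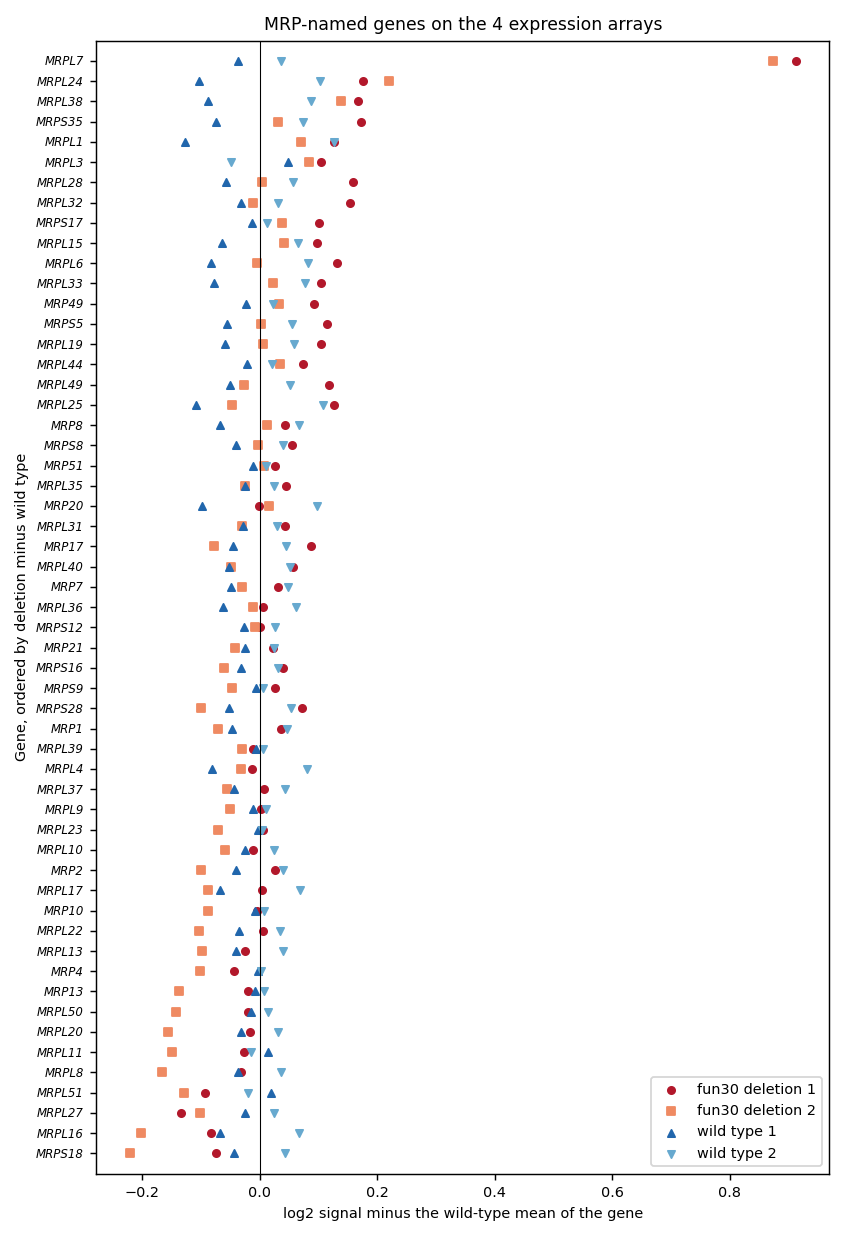
Log2 signal of each MRP-named gene on the 4 arrays, less the wild-type mean of that gene, ordered by the difference between genotypes. Circles and squares are fun30 deletion arrays 1 and 2, triangles pointing up and down are wild-type arrays 1 and 2. MRPL7 stands alone at the top, and in most rows array 1 of the deletion lies right of array 2 while array 2 of the wild type lies right of array 1.

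What the members shared most clearly was a small shift between arrays of one genotype. Deletion array 1 was above deletion array 2 for 52 of 55 members, beside 56.2% of all tested probe sets, with a median log2 gap of 0.07. Wild-type array 2 was above wild-type array 1 for 52 of 55 members, beside 46.3%, and the median of array 1 minus array 2 was −0.08. These shifts were as large as the members' median difference in any pairing of a deletion array with a wild-type array. That median was 0.073 for deletion 1 minus wild type 1 and −0.001 for deletion 1 minus wild type 2. It was 0.001 for deletion 2 minus wild type 1 and −0.078 for deletion 2 minus wild type 2. Single members could differ more between genotypes, as MRPL7 did at 0.89.

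The 24 mitochondrial ribosomal proteins under other names, such as the RSM genes, showed the same pattern between arrays, and 0 passed between genotypes, with 1 at an unadjusted p under 0.05 (limma). Deletion array 1 was higher for 24 of 24 and wild-type array 2 for 23 of 24, and the median difference between genotypes was 0.0003. Their largest differences were 0.19 for MRX14 and −0.17 for EHD3. The respiratory chain and ATP synthase list showed the shift within the wild type and not within the deletion. Wild-type array 2 was higher for 36 of 36 of these genes, while deletion array 1 was higher for 17 of 36. The cytosolic ribosomal proteins ran the other way in the wild type, where array 2 was higher for 6 of 148 probe sets. No test was made of these counts, since genes on the same arrays are not independent replicates.

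Other genes of mitochondrial gene expression did not pass in any list. Of 13 mitochondrial aminoacyl-tRNA synthetases, which charge tRNAs inside the organelle, 12 were positive in difference (median 0.11), beside 49.3% positive over all tested probe sets. The highest was MSF1, for phenylalanine, with 10.29 and 10.28 in the deletion, against 10.00 and 10.12 in the wild type (difference 0.22, adjusted p = 0.170, limma). MSK1, for lysine, had a difference of 0.18. Wild-type array 2 was above wild-type array 1 for 11 of the 13 synthetases, and the median of array 1 minus array 2 was −0.11. This shift within the wild type was about as large as the synthetases' median difference between genotypes. Their median was positive in every pairing of a deletion array with a wild-type array. It was 0.13 for deletion 1 minus wild type 1 and 0.03 for deletion 1 minus wild type 2. For deletion 2 it was 0.19 minus wild type 1 and 0.08 minus wild type 2. Among 21 translation and assembly factors the largest differences were 0.32 for MRM2, a methyltransferase of the large mitochondrial rRNA (adjusted p = 0.126, limma), and −0.29 for MTO1, which modifies mitochondrial tRNAs (adjusted p = 0.136, limma). These lists had medians of 0.05 for the factors and 0.06 for 17 translational activators, of which AEP1 had −0.27 and SOV1 0.25. An unadjusted p under 0.05 (limma) was found for 1 of the 13 synthetases, 3 of the 21 factors and 5 of the 17 activators, beside 22.2% of all tested probe sets.

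Genes that maintain or transcribe mitochondrial DNA (9 measured) had a median difference of −0.06, with 3 of 9 at an unadjusted p under 0.05 (limma), beside the same 22.2%. NUC1, the mitochondrial nuclease, had 9.85 and 9.38 in the deletion, against 10.21 and 10.03 in the wild type (difference −0.50, adjusted p = 0.178, limma), and the helicase gene HMI1 had −0.27. The respiratory list of 36 had a median of 0.02 and 1 gene at an unadjusted p under 0.05. Its largest differences were −0.35 for ATP18 and 0.23 for SDH1. Among 9 regulators, IFH1, a coactivator of cytosolic ribosomal protein genes, had 8.24 and 8.09 in the deletion, against 8.63 and 8.66 in the wild type, and lay just short of the threshold (difference −0.48, adjusted p = 0.0503, limma). HAP4, an activator of respiratory genes, had a difference of 0.35 (adjusted p = 0.125, limma). Of the 9 regulators 3 had an unadjusted p under 0.05 (limma), beside 22.2% of all tested probe sets. The cytosolic ribosomal proteins had 2 of 148 probe sets below that p (limma), their median difference was −0.02, and their largest differences were −0.41 for RPL22B and −0.28 for RPS27A.

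**Figure D3:**
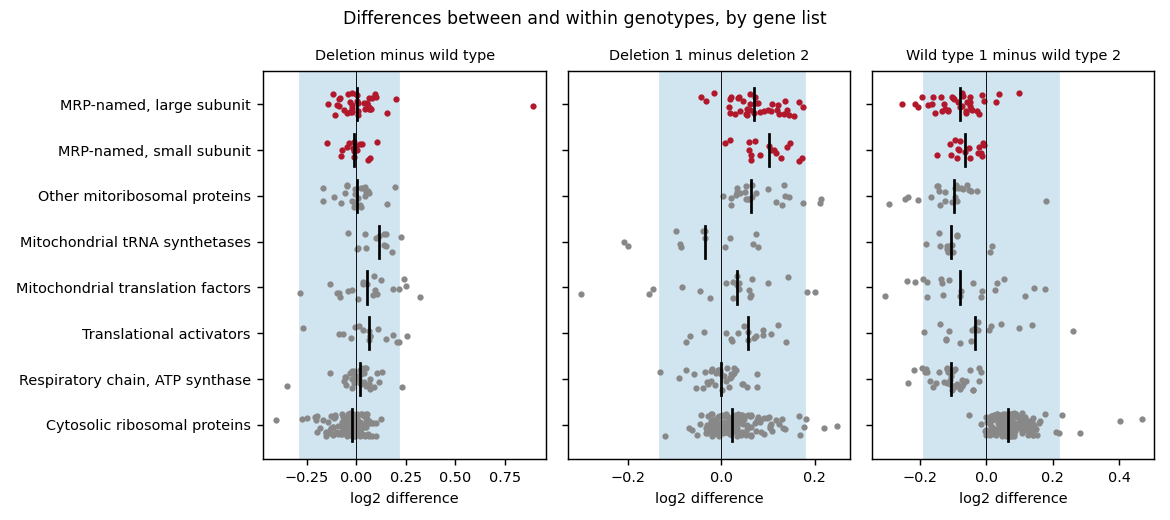
Log2 differences in signal by gene list, for deletion minus wild type (left), deletion array 1 minus 2 (middle) and wild-type array 1 minus 2 (right). Points are probe sets, black bars are list medians, and the blue band runs between the first and the last decile of all tested probe sets. The MRP-named genes (red) centre near 0 between genotypes, at 0.07 for large and 0.10 for small subunit members in the middle panel, and at −0.08 and −0.06 in the right panel.

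The integration arrays held 63 features for 33 members. Each strain carries a pair of barcodes, here called tags. Features paired in this way gave 34 strains, since MRPL39 was named by a pair and by a further single feature. Of the 33 genes, 21 belong to the large subunit, 11 to the small subunit, and MRP8 is the other. On both arrays, 28 strains had values from both tags. MRPL10, MRP21, MRPS9, MRPL23 and the second MRPL39 strain had 1 feature, and MRPL49 had 1 with the ISU1 cassette and 2 with the SOD2 cassette. The other 23 members were not analysed here.

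Values are log2 of the deposited ratio less the array median. The numerator of the ratio is not stated in the sources used here, so values are placed above or below the median only. The dyes of the cassette and plasmid pools were exchanged between the arrays. To mark the scale, the strain lacking FUN30 lay at −1.43 with the ISU1 cassette and −1.20 with the SOD2 cassette. The strain lacking RAD54, a motor protein of homologous recombination, lay at 1.88 and 2.28. The values of these strains came from 1 feature per array, and for RAD54 that feature was a different tag on each array. With 1 array per cassette no test was made, and both arrays were set against pRS416 pools, so they may share a control.

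Strains lacking a mitochondrial ribosomal protein were centred near the median of all strains on both arrays. The 34 strains, MRP8 among them, had medians of −0.02 (ISU1 cassette) and 0.06 (SOD2 cassette), beside −0.01 and 0.01 over all named strains. None of them lay 2-fold or more from the median on both arrays, beside 1.88% of named strains above and 0.609% below. At 1.5-fold, 3 strains lay above on both arrays and 1 below, beside 4.82% and 2.33%. The strains covered much of the range between these marks, with an SD of 0.41 with the ISU1 cassette and 0.56 with the SOD2 cassette, beside 0.49 and 0.53 over all named strains.

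The strains that lay 1.5-fold above on both arrays lacked MRPL49, MRP51 and MRPL13. The strain lacking MRPL49 (bL21m) had a deposited ratio of 1.71 from its single feature on the ISU1 array, and 3.19 and 2.51 on the SOD2 array, which gave 0.77 and 1.42. It was the highest member by the mean of both arrays. The strain lacking MRP51, a small-subunit protein known from its genetic interactions with the leaders of mitochondrial messenger RNAs, had ratios of 1.60 and 2.27 with the ISU1 cassette and 2.35 and 1.75 with the SOD2 cassette, which gave 0.93 and 0.94. All its tags agreed in side, and the arrays gave nearly the same mean. The strain lacking MRPL13 (mL50) had 1.65 and 1.49 with the ISU1 cassette and 2.09 and 1.57 with the SOD2 cassette, which gave 0.65 and 0.77. Nearer the median, the strain lacking MRP2 lay at 0.46 with the ISU1 cassette and 0.62 with the SOD2 cassette, that lacking MRPL17 at 0.33 and 0.41, and that lacking MRP13 at 0.44 and 0.07.

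At the low end lay strains lacking proteins of the small subunit. The strain lacking MRPS8, whose bacterial counterpart binds the small-subunit rRNA early in assembly, had ratios of 0.86 and 0.44 with the ISU1 cassette and 0.67 and 0.71 with the SOD2 cassette. All tags lay below the median, but the tags of the ISU1 array were −0.22 and −1.18, so its mean of −0.70 there rests largely on 1 tag. On the SOD2 array its mean was −0.62. The strain lacking MRPS16 (bS16m) had 0.82 and 0.70 with the ISU1 cassette and 0.49 and 0.69 with the SOD2 cassette, which gave −0.40 and −0.87. MRPL39 followed, with a pair at −0.03 and −0.57, while its single-feature strain lay at −0.20 and −0.13. Of the remaining strains below the median on both arrays, MRP49, MRPL15, MRPL51 and MRPL9 had means of both arrays from −0.18 to −0.03, as did MRPL1.

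Among the 28 strains with all 4 tag values, 5 lay above the median with every tag and 2 below, beside 17.5% and 17.8% of named strains. The 5 lacked MRP2, MRP51, MRPL13, MRPL17 and MRPL20, and the 2 lacked MRPS8 and MRPS16. The rule that asks for every tag was chosen after the values were seen. The SD of a single feature was taken from the differences between tags, divided by the square root of 2. Among members it was 0.40 with the ISU1 cassette and 0.33 with the SOD2 cassette, beside 0.28 on each over all strains. The strain lacking MRP1, for example, had tags at −0.42 and 0.89 on the ISU1 array.

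**Figure D4:**
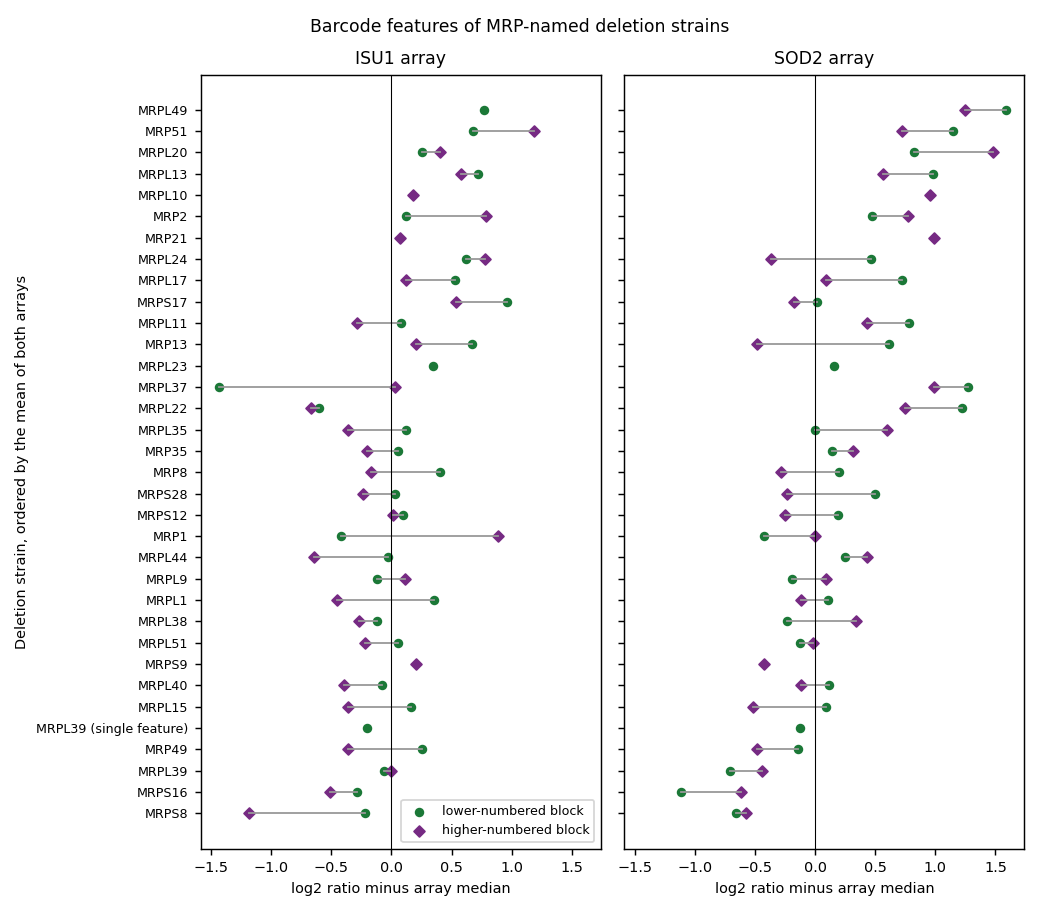
Log2 ratio less the array median for every barcode feature of the MRP-named deletion strains, on the ISU1 array (left) and the SOD2 array (right), ordered by the mean of both arrays. Circles are features of the lower-numbered block, diamonds those of the higher-numbered block, and grey lines join the features of a strain. Lines that cross 0, as for MRP1 and MRPL1 on the ISU1 array, mark strains whose tags fell on different sides.

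The arrays differed for several strains of both subunits. On the SOD2 array 3 strains lay 2-fold or more above the median, beside 4.78% of named strains, and 0 lay as far below, beside 1.41%. They lacked MRPL49, MRPL20 and MRPL37. At 1.5-fold, 10 of 34 lay above on the SOD2 array, beside 13.0%, and 2 below, beside 6.8%, while on the ISU1 array 5 lay above, beside 8.16%, and 3 below, beside 7.58%. The strain lacking MRPL20 (mL58) had ratios of 1.87 and 2.96 on the SOD2 array and 1.19 and 1.32 on the ISU1 array. On the ISU1 array 0 member strains lay 2-fold from the median in either direction, beside 3.3% above and 1.98% below. The strains lacking MRP21, of the small subunit, and MRPL10, of the large, had a single feature each. They lay at 0.99 and 0.95 on the SOD2 array and at 0.07 and 0.18 on the ISU1 array.

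Strains lacking MRPL37 and MRPL22 lay on opposite sides of the median, at least 0.5 from it on each array, as did 0.98% of named strains. The strain lacking MRPL37 (mL54) had ratios of 2.56 and 2.10 on the SOD2 array and 0.37 and 1.02 on the ISU1 array, so its tags agreed on the SOD2 array only. The strain lacking MRPL22, whose bacterial counterpart lines the exit tunnel of the nascent chain, had 2.47 and 1.78 on the SOD2 array and 0.66 and 0.63 on the ISU1 array. Here both tags gave the same side on each array. In the other direction, MRPS17, MRPL24 and MRPS9 had the largest excess of the ISU1 array. The strain lacking MRPS17 (uS17m) lay at 0.75 with the ISU1 cassette and −0.08 with the SOD2 cassette, that lacking MRPL24 at 0.70 and 0.05, and that lacking MRPS9, with 1 feature, at 0.20 and −0.42.

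By subunit, the medians differed in order between the arrays. On the ISU1 array the median was −0.06 over 22 large-subunit strains and 0.20 over 11 small-subunit strains, with 7 and 8 above the array median. On the SOD2 array it was 0.19 for the large and −0.03 for the small subunit, with 15 and 5 above. The SOD2 value exceeded the ISU1 value in 16 of 22 large-subunit strains and 5 of 11 small-subunit strains, beside 52.2% of all named strains. The share was 71.4% for translational activators, 65.2% for the respiratory chain and ATP synthase and 64.1% for cytosolic ribosomal proteins. A high share was thus not particular to the large subunit. It was 42.9% for mitochondrial ribosomal proteins under other names, 33.3% for mitochondrial aminoacyl-tRNA synthetases and 29.4% for translation and assembly factors. The small number of strains and the distance between tags leave these orders as descriptions. MRP8, at 0.12 with the ISU1 cassette and −0.04 with the SOD2 cassette, lay near the median.

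**Figure D5:**
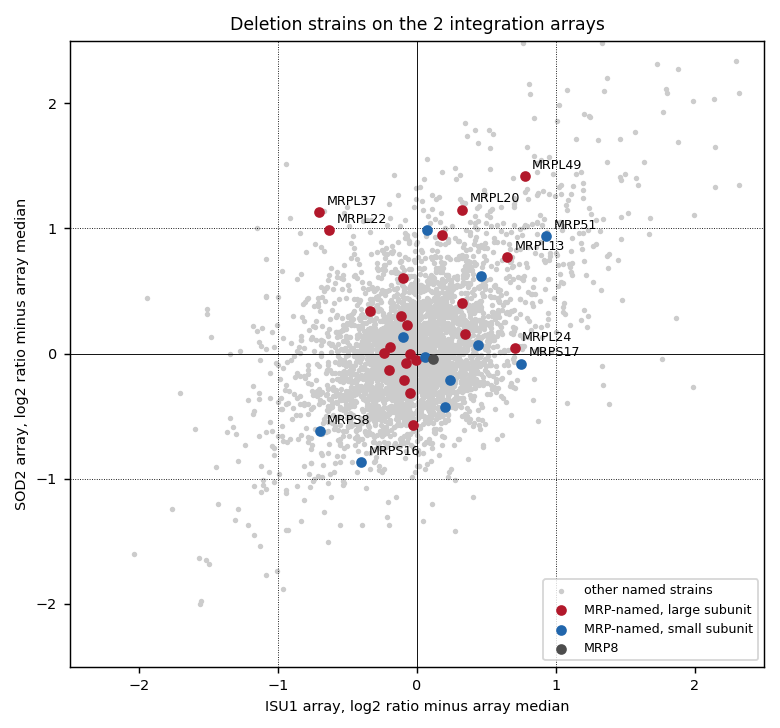
Each named deletion strain by its log2 ratio less the array median on the ISU1 array (horizontal) and the SOD2 array (vertical), as the mean of its features. Red and blue points are strains lacking MRP-named proteins of the large and small subunit, the dark grey point MRP8, light grey points other strains, and dotted lines mark 2-fold, with 19 strains outside the plotted range. No red or blue point lies past 2-fold on both arrays, and MRPL37 and MRPL22 lie apart at the upper left.

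Some strains lacking other proteins of mitochondrial translation lay past 2-fold on both arrays, which no member strain did. Of 9 strains lacking a mitochondrial aminoacyl-tRNA synthetase, 0 lay past 2-fold on either array. The strain lacking MRX14, which encodes a large-subunit protein and lies next to MRPL1, had ratios of 3.24 and 2.79 with the ISU1 cassette and 2.03 and 3.57 with the SOD2 cassette, which gave 1.59 and 1.34. The strain lacking its neighbour MRPL1 lay at −0.05 on the ISU1 array and at the median on the SOD2 array. MRX14 was the 1 strain of 7 under other ribosomal protein names, with values on both arrays, past 2-fold above on both. The count was 1 of 17 for translation and assembly factors (MTO1) and 1 of 14 for translational activators (MTF2), beside 1.88% of all named strains. The strain lacking MTO1 lay at 1.02 and 1.99, and that lacking MTF2, which acts on mitochondrial messenger RNA, at 1.52 and 1.12 from 1 feature per array. Of 23 respiratory chain strains with both values, 1 lay past 2-fold below on both arrays, beside 0.609% of named strains. It lacked COX6, a cytochrome oxidase subunit, and lay at −1.57 and −1.63. On the ISU1 array 4 of 24 respiratory strains lay 2-fold below, beside 1.98%, and 0 above. On the SOD2 array 1 of 23 lay as far below, beside 1.41%, and 1 above. Of 92 cytosolic ribosomal protein strains with both values, 1 lay past 2-fold above on both arrays, beside 1.88%. It lacked RPP1A and lay at 1.18 and 1.45.

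MRPL7, the only member with an expression call, was not analysed here as a strain. Whether a member combines such a call with an extreme strain value could therefore not be asked. The strains lacking MRPL49 and MRP51, the highest of the members, correspond to genes with expression differences of 0.05 and 0.02, and those lacking MRPS8 and MRPS16, the lowest, to genes with differences of 0.03 and −0.01. These 4 genes did not pass (limma).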

How the data were processed

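For expression, the authors deposited RMA output on a log2 scale, 1 value per probe set. RMA and limma are named per the submitters' processing notes, and the sources used here give no versions. Because RMA makes array distributions alike, a shift of all transcripts would not be seen. Of 10928 probe sets, 5498 name 1 gene of the RefSeq table (assembly R64) and were tested. Integration values are linear ratios of 2 channels, as deposited by the authors, with scaling and direction not given. The sign was kept as deposited, since r between the arrays was 0.53 over strains. Features with numbers 10971 apart named the same gene in 3400 of 3400 pairs and were averaged as tags of a strain, giving 3838 named strains. Each array's median (1.00 for ISU1, 1.06 for SOD2, as ratios) was subtracted on the log2 scale.

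Expression was tested with limma 3.58.1 in R 4.3.3 (lmFit and eBayes), genotype alone, 2-sided, Benjamini-Hochberg adjusted, with 2 residual and 3.23 prior degrees of freedom, and tested on simulated data. Integration had no test. Python 3.11.15 did the rest. Members and lists were chosen with earlier results of these data known, as was the run from GCD6 to EXG2. Named were FUN30, members that passed, the 10 highest and 10 lowest in expression, up to 10 highest and 10 lowest strains among those on the same side of the median on both integration arrays, those past 2-fold on either integration array, the 3 with the largest array difference each way, from each other list the 2 genes of largest difference (none passed) and up to 2 strains past 2-fold on both arrays, and the FUN30 and RAD54 strains. Alternatives left out arrays, changed normalization, variance trend, probe set handling, centring, tags and fold. No sequences or coordinates were used.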

Additional observations from a re-analysis of the deposited data

Results flagged for a closer look

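In the strain lacking MRPL37 the SOD2 value exceeded the ISU1 value by 1.83 (log2), and in that lacking MRPL22 by 1.62, because each lay at least 0.5 above the median on the SOD2 array and at least 0.5 below it on the ISU1 array. The difference was not tested, since each cassette has 1 array. Of 3774 named strains 37 met the same description (0.98%). For MRPL37 the ISU1 tags were −1.43 and 0.03, and for MRPL22 they were −0.60 and −0.67.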

How the results depend on the processing

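The counts over all probe sets moved with the arrays used, from 52 to 194 rises and from 23 to 307 falls when an array was left out, while MRPL7 was the 1 member that rose each time and 0 members fell. With the replicate number as a block, 271 probe sets rose and 523 fell, and again 1 member rose and 0 fell. Same-numbered arrays deviated together with r = 0.26 over probe sets, but over the members r was −0.06. The labels give no shared origin for a number. Without the chromosome IV genes from GCD6 to EXG2 there were 23 rises and 45 falls, and 0 members, because MRPL7 was left out. The members' median difference lay between −0.038 and 0.036 over the fits that left out an array. The differences of MRPL32 (−0.011 to 0.15) and MRPL1 (−0.029 to 0.23) changed sign in 1 such fit each. At 1.5-fold in place of 2-fold, 3 member strains lay above on both integration arrays and 1 below. With the lower-numbered tag alone the median was 0.10 with the ISU1 cassette and 0.15 with the SOD2 cassette, and with the higher-numbered tag alone it was 0 and 0.05. The precision is limited by 2 arrays per genotype and 1 per cassette.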
